A study of Mus musculus with 36 samples.

Results

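The H2 genes are the major histocompatibility complex (MHC) genes of the mouse. They were taken here as the annotated genes whose symbol starts with H2- and whose start lies on chromosome 17 of the mm9 genome (NCBIM37, GENCODE M1 annotation). The rule found 42 genes of 37252 annotated on the 19 autosomes and X, and 0 genes with that prefix on another chromosome. Their symbols sorted them into 17 class I genes, 10 class II genes, 13 genes of the M region and 2 Ke genes. Of the 42, 36 were annotated as protein-coding and 6 as pseudogenes or other types, and the symbol H2-Q2 stood for 2 entries (ENSMUSG00000079507.4 and ENSMUSG00000091705.2), which were both kept. The rule uses symbol and position and no measured value, but it was set with earlier results of these data known.

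Repli-seq measures replication timing (RT) as the ratio of DNA newly made in early S phase to that made in late S phase. Control CH12 cells, a mouse B lymphoma line infected with a lentivirus carrying a short hairpin RNA against LacZ (shLacZ) and stimulated with IL4, CD40 and TGF beta, gave 4 libraries, as did activated splenic B cells of WT mice (primary B cells). The growth label of the primary B libraries repeats the text for CH12 cells. For each condition the libraries were 2 replicates of the early and 2 of the late fraction, and they were merged into 1 map before the deposited states were called. The methods call the 2 sorted samples of a fraction technical replicates, and elsewhere say that sequencing replicates of CH12 cells came from separately thawed vials. A further map carries the name of WT mouse embryonic fibroblasts (MEFs), a non-lymphoid cell type. No sample of the series is tied to that map, the study lists the MEF data as coming from another source, and whether they were processed in the same way is not stated, so it is called the map named for MEFs. The 5 other groups of libraries, with Rif1 deleted or Mcm6 depleted or both, were not analysed here.

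A deposited map divides each chromosome into domains, and each domain holds 1 of 3 states: early (E), middle (M) or late (L). A gene had the state of the domain that covers its start, on its own strand. With 1 merged map per condition there was no replicate spread, so no test was made and all comparisons below are descriptions. Genes in the same domain share 1 measurement, and the number of separate domains is therefore given with the counts. Sequencing depth is unknown, since the maps hold limits and state numbers and no read counts.

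MHC class I molecules sit on nearly all nucleated cells and show peptides from inside the cell to CD8 T cells. MHC class II molecules show peptides taken up from outside to CD4 T cells, and B cells are among the few cell types that make them at high level. On mouse chromosome 17 the order, from the centromere outward, is a first pair of class I genes (K), the class II genes, a block of unrelated genes called the class III region, the D, Q and T class I genes, and the M region. Gene-dense DNA that is open for transcription usually replicates early in S phase, and gene-poor or silent DNA late.

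To show the members that the comparisons turn on, the 250 bases just before 8 gene starts are printed 5′ to 3′ on the strand of the gene, as read from NCBIM37, with the motif CCAAT, on either strand (CCAAT or ATTGG), in capitals. H2-K1 (chr17:34137279-34137528, minus strand) and H2-Ab1 (chr17:34399904-34400153, plus strand) stand for the classical class I and class II genes, which were E in all 3 maps. H2-T3 (chr17:36327233-36327482, minus) and H2-M10.3 (chr17:36505363-36505612, minus) were E in the primary B map and M in that of CH12. H2-M10.4 (chr17:36599280-36599529, minus) and H2-M3 (chr17:37406915-37407164, plus) were L in CH12 and M in primary B cells. H2-M5 (chr17:37126483-37126732, minus) was M in both B cell maps and E in the map named for MEFs, and H2-M2 (chr17:37620498-37620747, minus) was L in all 3 maps.
H2-K1: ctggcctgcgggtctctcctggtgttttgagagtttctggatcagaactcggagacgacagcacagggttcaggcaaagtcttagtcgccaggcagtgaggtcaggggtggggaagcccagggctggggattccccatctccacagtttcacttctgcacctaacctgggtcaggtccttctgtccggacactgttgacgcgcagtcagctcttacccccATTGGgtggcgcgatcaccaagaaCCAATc
H2-Ab1: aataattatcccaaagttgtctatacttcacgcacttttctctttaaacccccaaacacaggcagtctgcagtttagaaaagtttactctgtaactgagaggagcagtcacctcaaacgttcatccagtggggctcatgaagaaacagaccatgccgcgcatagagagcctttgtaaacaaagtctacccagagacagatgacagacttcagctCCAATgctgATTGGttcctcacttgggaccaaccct
H2-T3: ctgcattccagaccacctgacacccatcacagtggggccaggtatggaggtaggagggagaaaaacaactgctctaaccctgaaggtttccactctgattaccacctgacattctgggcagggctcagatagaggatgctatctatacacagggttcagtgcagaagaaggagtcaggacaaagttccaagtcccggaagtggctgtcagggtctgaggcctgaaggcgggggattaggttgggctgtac
H2-M10.3: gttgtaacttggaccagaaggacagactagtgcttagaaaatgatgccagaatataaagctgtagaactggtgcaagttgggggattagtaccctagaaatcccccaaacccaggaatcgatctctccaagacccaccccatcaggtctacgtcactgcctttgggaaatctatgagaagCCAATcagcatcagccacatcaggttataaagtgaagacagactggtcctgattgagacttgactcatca
H2-M10.4: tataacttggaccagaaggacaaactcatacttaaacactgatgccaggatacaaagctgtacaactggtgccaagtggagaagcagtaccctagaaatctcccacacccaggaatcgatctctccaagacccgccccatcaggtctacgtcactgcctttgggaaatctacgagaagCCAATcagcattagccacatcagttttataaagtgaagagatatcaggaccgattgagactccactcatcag
H2-M5: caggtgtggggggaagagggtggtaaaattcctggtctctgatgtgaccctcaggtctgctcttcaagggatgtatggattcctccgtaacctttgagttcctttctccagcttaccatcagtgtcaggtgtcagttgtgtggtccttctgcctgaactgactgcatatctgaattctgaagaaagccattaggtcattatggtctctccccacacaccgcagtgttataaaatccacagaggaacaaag
H2-M3: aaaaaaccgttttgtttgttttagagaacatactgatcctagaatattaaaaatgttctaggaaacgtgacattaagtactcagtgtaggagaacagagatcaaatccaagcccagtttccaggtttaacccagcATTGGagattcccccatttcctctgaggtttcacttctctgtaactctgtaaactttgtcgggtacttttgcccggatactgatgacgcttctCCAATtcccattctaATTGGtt
H2-M2: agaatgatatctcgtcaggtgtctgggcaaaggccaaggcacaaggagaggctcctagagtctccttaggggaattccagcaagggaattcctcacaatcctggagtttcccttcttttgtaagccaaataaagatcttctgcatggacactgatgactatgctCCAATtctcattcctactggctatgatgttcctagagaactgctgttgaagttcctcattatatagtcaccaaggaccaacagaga

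CCAAT is the core of the Y box of the MHC promoter module. In 28 of the 42 windows there was at least 1 match, a share of 66.7%, against 33.7% of the windows before 37247 annotated genes of all types. Similar windows of related H2 genes are not separate observations. Of the class I windows 12 of 17 held it, of the class II windows 5 of 10, and of the M region windows 10 of 13. The match thus did not separate the classes that were E from the M region. Among the printed windows H2-M3 had 3 matches, H2-K1 and H2-Ab1 had 2 each, H2-M10.3, H2-M10.4 and H2-M2 had 1 each, and H2-T3 and H2-M5 had 0. The windows of H2-M10.3 and H2-M10.4 were 86.2% identical in a global alignment and placed the motif 70 and 72 bases before the start, although the 2 genes lie in different states in both B cell maps. A match of 5 letters is a description of the window and not a binding site.

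In CH12 cells 28 of the 42 H2 genes (66.7%) were E, 8 were M and 6 were L, against 44.8% of all genes E and 28.4% L. In primary B cells 32 (76.2%) were E, 9 were M and 1 was L, against 51.7% of all genes E and 17.4% L. In the map named for MEFs 30 (71.4%) were E, 11 were M and 1 was L, against 51.8% E and 16.3% L. On chromosome 17 itself, where the share of E genes is higher than in the genome, 62.5% of 1576 genes were E in CH12, 65.9% in primary B cells and 62.9% in the map named for MEFs. The H2 genes occupied 5 domains in CH12, 3 in primary B cells and 5 in the map named for MEFs, so these counts rest on few independent calls.

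**Figure D1:**
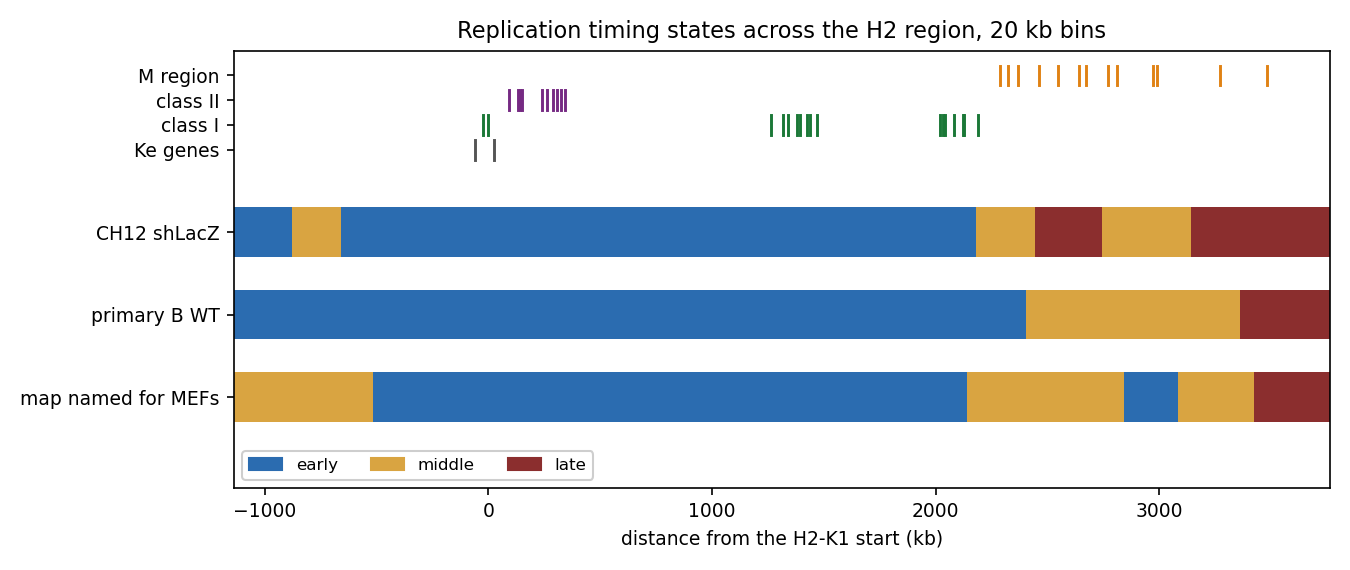
State of each 20 kb bin of the H2 region in the 3 maps, with the horizontal axis giving the distance in kb from the start of H2-K1 and the ticks above giving the gene starts of each class. The block from H2-Ke2 to H2-T9 lies in a single E domain in each map, and the M region covers E, M and L domains whose limits differ between the maps.

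The same 28 genes, from H2-Ke2 to H2-T9, were E in all 3 maps, a share of 66.7% against 38.1% of all genes and 54.2% of the genes of chromosome 17. In each map they lay in 1 unbroken E domain. In CH12 cells this domain ran from 33480001 to 36320000 (2840 kb), and 44 of 555 E domains were at least as long. In primary B cells it ran from 30660001 to 36540000 (5880 kb), with 5 of 660 E domains at least as long, itself included. In the map named for MEFs it ran from 33620001 to 36280000 (2660 kb), with 82 of 567 at least as long. The median length of an E domain was 680 kb in CH12, 740 kb in primary B cells and 960 kb in the map named for MEFs. On the centromere side, CH12 cells had an M domain of 220 kb (33260001 to 33480000), with zinc finger and olfactory receptor genes and no H2 gene, which was E in the primary B map and so did not break the long domain there.

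Of the 17 class I genes, 16 were E in CH12 cells, 17 in primary B cells and 16 in the map named for MEFs. The shares of all genes that were E were 44.8%, 51.7% and 51.8% in these maps. H2-K1 (ENSMUSG00000061232.8, chr17:34132962-34137278, minus strand), which encodes a classical class I heavy chain, was E in each map and lay 657, 2403 and 517 kb from the nearest domain edge in CH12, primary B cells and the map named for MEFs. The other classical gene of the C57BL/6 genome, H2-D1 (chr17:35399675-35404444, plus strand), was E in each map as well, at 920, 1140 and 880 kb from an edge. H2-K2, a pseudogene beside H2-K1, was the first class I gene by position and was also E throughout. H2-K1 and H2-D1 therefore shared a domain in each map, although the class II genes and the class III region lie between them.

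The 7 Q entries were E in all 3 maps, against 38.1% of all genes. H2-Q7, which encodes the non-classical Qa-2 molecule, lay 744 kb from an edge in CH12 and 964 kb in primary B cells, and H2-Q10, which encodes a secreted class I molecule made in liver, lay 713 and 933 kb from an edge. GENCODE M1 has no entry under the symbol H2-Q1. Reads are hard to place in several of these near-identical genes. Reads were 50 bases long and kept where they aligned uniquely, and only 35.6% of the 50-base windows of H2-Q7 and 43.2% of those of H2-Q6 occur once in the reference. The 20 kb bins that hold the starts of H2-Q4, H2-Q8, H2-Q6 and H2-Q7 had 40.7% to 49.4% such windows, against a median of 95.4% over the 4603 bins of chromosome 17 with known bases. Their E state therefore rests more on neighbouring sequence, which the smoothing span of 300 kb brings in, and its effect on the state was not tested.

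Of the 6 T genes, 5 were E in CH12 cells, 6 in primary B cells and 5 in the map named for MEFs. As given above, 44.8%, 51.7% and 51.8% of all genes were E in these maps. H2-T23, which encodes Qa-1, the ligand of the CD94/NKG2A receptor of natural killer cells, was E throughout and lay 150 kb from an edge in CH12, 370 kb in primary B cells and 110 kb in the map named for MEFs. H2-Bl, which has no T in its symbol but lies among these genes, was E throughout. H2-T10, annotated as a polymorphic pseudogene, and H2-T9 were the last H2 genes of the long E domain in the map named for MEFs. There they lay 21.6 and 13.6 kb inside its edge. In CH12 cells they lay 61.6 and 53.6 kb inside the edge, and in primary B cells 282 and 274 kb. All 3 maps place H2-T10 and H2-T9 closer to the edge than the smoothing span of 300 kb, over which the position of an edge is blurred.

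H2-T3 (ENSMUSG00000054128.10, chr17:36322517-36327232, minus strand), which encodes the thymus leukemia antigen, was the 1 class I gene whose state differed between the maps. It was M in CH12 cells, E in primary B cells and M in the map named for MEFs. In CH12 cells its start lay 7.23 kb beyond the E edge, less than 1 bin of 20 kb, and in the map named for MEFs 47.2 kb beyond it. In primary B cells it lay 213 kb inside the E domain. Of its windows 97.0% occur once in the reference, the highest share of any class I gene, which ranged from 35.6% with a median of 68.1%. H2-T9 and H2-T3 start 60.9 kb apart.

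All 10 class II genes were E in all 3 maps, against 38.1% of all genes and 54.2% of those on chromosome 17. They lay in 1 domain per map. The first by position, H2-Oa, and its partner H2-Ob encode the chains of H2-O, which restrains peptide loading. H2-Oa lay 749, 2311 and 609 kb from the nearest edge in CH12, primary B cells and the map named for MEFs, and H2-Ob lay 896, 2164 and 756 kb from it. H2-DMa, H2-DMb1 and H2-DMb2 encode H2-DM, which exchanges peptides on class II molecules, and lay between 792 and 810 kb from an edge in CH12 cells and between 2250 and 2268 kb in primary B cells. H2-Ab1 (ENSMUSG00000073421.4, chr17:34400154-34406363, plus strand) and H2-Aa (chr17:34406276-34424772, minus strand), which encode the beta and alpha chains of the A molecule, lay 920 and 945 kb from an edge in CH12 cells. H2-Eb1, which encodes the beta chain of the E molecule, lay 963 kb from it. The last class II gene, H2-Ea-ps, was 1002 kb from an edge in CH12, the deepest of all 42 genes in that map.

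The class II genes were thus E in the map named for MEFs too, a cell type that makes little class II without interferon, with a median distance to the edge of 768 kb against 908 kb in CH12 cells and 2152 kb in primary B cells. The 3 distances follow the lengths of the domains and are not separate measurements for each gene. No RNA was measured in these libraries, so expression was not compared. The 2 Ke genes, H2-Ke2 and H2-Ke6, which flank the K genes and encode a prefoldin subunit and a steroid dehydrogenase rather than MHC molecules, were E in all maps as well. H2-Ke2 lay 597 kb and H2-Ke6 685 kb from an edge in CH12 cells.

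**Figure D2:**
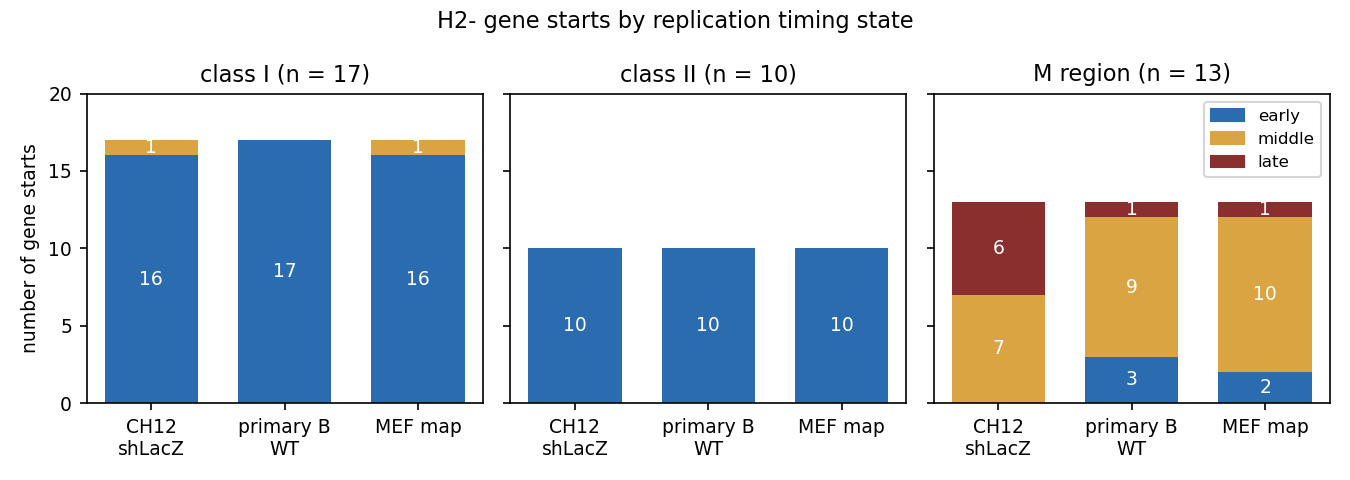
Number of gene starts (vertical axis) in E, M and L domains for the 17 class I, 10 class II and 13 M region genes in each of the 3 maps; each bar is 1 merged map, so there are no error bars. All class II genes and 16 or 17 class I genes were E, whereas 0, 3 and 2 genes of the M region were E in CH12, primary B cells and the map named for MEFs.

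The M region had another distribution. In CH12 cells 0 of its 13 genes were E, 7 were M and 6 were L, in 4 domains. In primary B cells 3 were E, 9 were M and 1 was L, in 3 domains. In the map named for MEFs 2 were E, 10 were M and 1 was L, in 4 domains. Of all genes 44.8%, 51.7% and 51.8% were E in these 3 maps, and 28.4%, 17.4% and 16.3% were L. The span of the region, 61 bins from 36420001 to 37640000, had 0 E bins, 28 M bins and 33 L bins in CH12. L made up 54.1% of the span, close to its 49.8% of the whole CH12 map. In primary B cells 6 bins were E, 48 M and 7 L (11.5% L, against 39.0% of that map). In the map named for MEFs 12 were E, 45 M and 4 L (6.56% L, against 30.6% of that map). E made up 22.7%, 28.6% and 30.7% of the 3 whole maps. By contrast, the 14 bins of the class II span were all E in each map, and of the 48 bins from H2-D1 to H2-T3 47 were E in CH12, 48 in primary B cells and 45 in the map named for MEFs.

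The M10 and M1 families make up 9 of the 13 genes and are known for their expression in sensory neurons of the vomeronasal organ, together with pheromone receptors. In CH12 cells 5 of the 9 were M and 4 were L, where 44.8% of all genes were E and 28.4% L. In primary B cells 3 were E and 6 were M, where 51.7% of all genes were E and 17.4% L. In the map named for MEFs all 9 were M, where 51.8% of all genes were E and 16.3% L. These 9 shared a single M domain (36280001 to 36980000). The 4 L genes of CH12, and the 3 E and the 6 M genes of primary B cells, likewise shared a single domain each. The 6 M10 genes did not share a state in either B cell map. H2-M10.2 (chr17:36421172-36423435), H2-M10.1 (chr17:36459803-36463100) and H2-M10.3 (ENSMUSG00000058124.3, chr17:36501949-36505362), all on the minus strand, were M in CH12 cells, E in primary B cells and M in the map named for MEFs. H2-M10.4 (ENSMUSG00000048231.8, chr17:36595862-36599279, minus strand) was L in CH12 cells and M in the other maps. H2-M10.5 and H2-M10.6, on the plus strand, were M in all 3.

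H2-M10.3 and H2-M10.4 start 93.9 kb apart with no protein-coding start between them, and in both B cell maps a domain edge ran through that gap. In CH12 cells the edge was from M to L and lay 74.6 kb beyond H2-M10.3 and 19.3 kb before H2-M10.4. In primary B cells it was from E to M, 34.6 kb beyond the former and 59.3 kb before the latter. The 2 edges are 40 kb apart, or 2 bins. In the map named for MEFs no edge fell there, and the nearest edge to H2-M10.4 was 319 kb away. As the printed sequences show, the DNA before these 2 genes is similar. Over the 15 pairs of M10 genes the identity of the windows had a median of 81.3%. The pairs with H2-M10.2 ran from 48.9% to 52.5%, and all other pairs from 80.5% to 88.8%.

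H2-M11, H2-M9 and H2-M1 had the states of H2-M10.4. They were L in CH12 cells, where the 4 genes filled a domain of 300 kb (36580001 to 36880000) with no other protein-coding start, and M in primary B cells and in the map named for MEFs. H2-M11 lay 104 kb, H2-M9 100 kb and H2-M1 70.8 kb from the nearest edge in CH12 cells. A domain of 300 kb is as long as the smoothing span and short among the L domains of that map, of which 666 of 750 were at least as long. The 15 bins of the domain had a mean of 77.6% windows found once, against 92.9% in the M domain that follows. Whether the lower share of placeable sequence bears on the L call was not tested. Beyond this domain CH12 cells returned to M for 400 kb (36880001 to 37280000), where H2-M10.5 lay 29.9 kb and H2-M10.6 69.1 kb inside it.

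H2-M6-ps, a pseudogene, and H2-M5 (ENSMUSG00000024459.10, chr17:37121006-37126482, minus strand) were M in both B cell maps and E in the map named for MEFs. There they lay in an E domain of 240 kb (36980001 to 37220000), with 13 protein-coding starts, or 54.2 per Mb. Its other genes included Trim15, Trim10, Trim40 and Trim31, Zfp57, an imprinting factor, Mog, a myelin protein, and Gabbr1, a GABA receptor subunit. H2-M5 lay 93.5 kb from the edge of this domain and 154 kb from an edge in CH12 cells. Of the E domains of that map 526 of 567 were at least this long, and it is shorter than the smoothing span. Its bins had 97.6% windows found once.

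H2-M3 (ENSMUSG00000016206.6, chr17:37407165-37411429, plus strand), which presents N-formylated peptides of bacteria and mitochondria, was L in CH12 cells, M in primary B cells and M in the map named for MEFs. It lay 127 kb inside the L domain in CH12 cells, and 92.8 and 153 kb from the L edge in the other maps. H2-M2 (ENSMUSG00000016283.6, chr17:37617796-37620497, minus strand) was the 1 H2 gene that was L in all 3 maps, at 340, 120 and 60.5 kb from the edge. These 2 genes lie among olfactory receptor genes. Of the 17 protein-coding Olfr genes of the span, 14 were L in CH12 cells, 4 in primary B cells and 3 in the map named for MEFs, and the others were M. Of all genes 28.4%, 17.4% and 16.3% were L in these maps. In each map the L Olfr genes shared the L domain that holds H2-M2. The 5 Trim genes of the span were M in both B cell maps, and 4 were E in the map named for MEFs, in the domain of H2-M5. Of all genes 44.8%, 51.7% and 51.8% were E in CH12, primary B cells and the map named for MEFs.

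Between the 2 B cell maps, 9 of the 42 H2 genes (21.4%) had an earlier state in the primary B map than in that of CH12, against 20.2% of all genes and 12.5% of those on chromosome 17. None of the 42 was in a later state, against 2.98% of all genes. The share that was earlier is close to that of the genome. The 9 genes were H2-T3 and 8 M region genes, and they fell in 3 intervals, so they are at most 3 separate changes. From 36320001 to 36540000 (220 kb) the state went from M in CH12 to E in primary B cells, with H2-T3, H2-M10.2, H2-M10.1 and H2-M10.3. From 36580001 to 36880000 (300 kb) it went from L to M, with H2-M10.4, H2-M11, H2-M9 and H2-M1. From 37280001 to 37500000 (220 kb) it went from L to M, with H2-M3. When genes within 100 kb of an edge in either map were left out, the count of differing genes was 3. No H2 gene went from L to E or back, and no class II gene differed.

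In these maps the end of the long E domain lay 220 kb farther from the centromere in primary B cells than in CH12 cells, and so did the start of the L domain that holds H2-M2. The distance from the one to the other was 960 kb, or 48 bins, in both. The inside of this stretch differed, since it was M throughout in primary B cells and held the 300 kb L domain in CH12 cells. In the map named for MEFs the E domain ended 40 kb before that of CH12 cells, the L domain started 280 kb beyond it, and 1280 kb lay between them. Of the bins in the M region span, 32 of 61 (52.5%) had an earlier state in primary B cells than in CH12 cells. A later state was found in 0 bins. Over 128935 bins of the genome 20.3% had an earlier and 3.62% a later state. The whole primary B map held 28.6% E and 39.0% L, and that of CH12 22.7% and 49.8%. An earlier state is a difference in the call and not a measured RT value. Neighbouring bins are not independent, and the 32 bins are the same 3 intervals, cut at the first bin of the span.

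**Figure D3:**
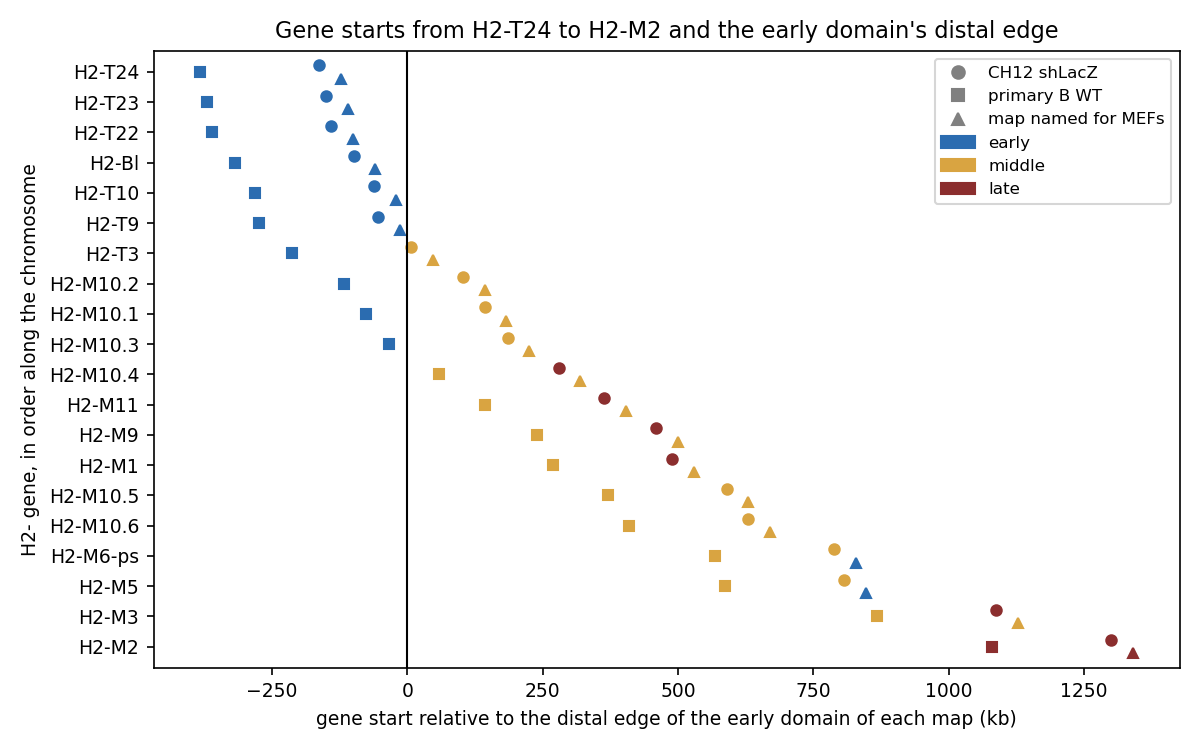
Start of each H2 gene from H2-T24 to H2-M2 (vertical axis, in chromosome order) relative to the distal edge of the long E domain of each map (horizontal axis, kb; negative values lie inside the domain), with symbols for the maps and colours for the state. The 4 genes from H2-T3 to H2-M10.3 lie inside the edge in primary B cells and beyond it in the other maps, and the colour order from E to L is interrupted in CH12 by 4 L genes and in the map named for MEFs by 2 E genes.

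Against the map named for MEFs, 7 H2 genes were in an earlier state there than in CH12 cells, and 0 in a later state, where 24.5% of all genes were earlier and 7.32% later. The 7 were the 5 genes that were L in CH12 and M elsewhere, and H2-M6-ps and H2-M5. Against primary B cells, 2 H2 genes (H2-M6-ps and H2-M5) had an earlier state in the map named for MEFs. A later state there was held by 4 (H2-T3, H2-M10.2, H2-M10.1 and H2-M10.3). Of all genes 13.8% had an earlier and 12.7% a later state there. Leaving out genes within 100 kb of an edge gave 4 differing genes against CH12 cells and 2 against primary B cells. These comparisons use the same CH12 and primary B maps as above, and their counts are not independent of each other. A stretch of 40 kb just before H2-T3 (36280001 to 36320000), with 3 protein-coding starts and no H2 start, was E in both B cell maps and M in the map named for MEFs. Source, processing and cell type of that map cannot be told apart.

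The H2 genes took 6 of the possible combinations of states over the 3 maps. After the 28 genes that were E throughout, the next combination, L in CH12 and M in the others, had 5 genes and is found in 6.91% of all genes. The combination of H2-T3 and the first 3 M10 genes, M, E and M in CH12, primary B cells and the map named for MEFs, had 4 genes and is found in 3.42% of all genes. H2-M6-ps and H2-M5 shared theirs with 5.25%, H2-M10.5 and H2-M10.6 with 10.8%, and H2-M2 with 11.4%.

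The classes differed in what the rule did not use. Mean GC content was 47.4% over the bins of the class II span, 48.1% from H2-D1 to H2-T3 and 42.0% over the M region span, where chromosome 17 had a mean of 42.7%. Protein-coding starts numbered 67.9 per Mb in the class II span, 49.0 per Mb from H2-D1 to H2-T3 and 35.2 per Mb in the M region. The M region was thus not poor in annotated starts, many of them H2 or Olfr genes. Within it, the M domain of CH12 that holds H2-M5 had 47.5 starts per Mb and a mean GC content of 43.7%, and the L domain of 300 kb before it 13.3 per Mb and 42.1%. Windows found once made up 92.3% of the class II span, 80.0% of the D, Q and T span and 84.0% of the M region span. The minimum for a bin was 5.35%, in the D, Q and T span, where 6 bins were under 50%. The M region had 2 such bins and the class II span 0. The span with the lowest mean share, that of the D, Q and T genes, was E in nearly all its bins. Smoothing over 300 kb brings flanking sequence into these bins, and whether the share bears on the state was not tested.

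**Figure D4:**
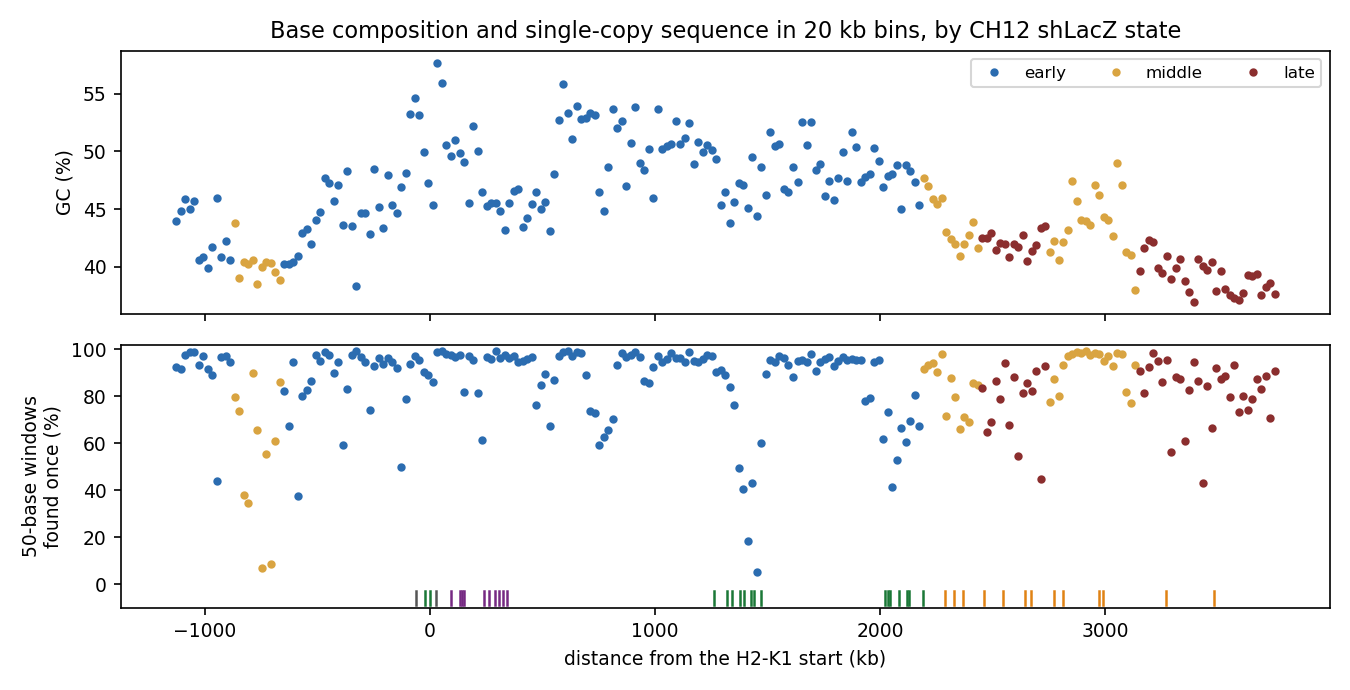
GC content (upper panel, %) and share of 50-base windows that occur once in the reference (lower panel, %) of each 20 kb bin, by distance from the H2-K1 start in kb; points are coloured by the state in CH12 cells, and ticks below mark gene starts of the Ke (grey), class I (green), class II (purple) and M region (orange) genes. Bins of the M region average 42.0% GC against 47.4% in the class II span, and the bin with the fewest windows found once, 5.35%, lies in the span of the D, Q and T genes.

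The genes that lie between H2-Ea-ps and H2-D1 shared the state of the H2 genes around them. All 44 bins between the class II span and the bin of H2-D1 were E in each map, and so were the 69 protein-coding starts that lie between the starts of these 2 genes. They include the complement genes C4b, C2 and Cfb, the cytokine genes Tnf, Lta and Ltb, and the heat shock genes Hspa1a and Hspa1b. Tnf lay 981 kb from an edge in CH12 cells and 1201 kb in primary B cells, and C4b lay 1401 and 1659 kb from it, deeper than any H2 gene in CH12 cells. The 28 protein-coding genes in the gap of 550 kb between H2-Q10 and H2-T24 were likewise E in all 3 maps. Of all protein-coding genes 43.9% were E in all 3. These neighbours lie in the same E domain of each map and are not separate calls.

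Of 11 genes for class I peptide supply and loading, 9 were E and 2 M in CH12 cells, and 10 were E and 1 M in primary B cells and in the map named for MEFs, in 6 domains per map. As given above, 44.8%, 51.7% and 51.8% of all genes were E in CH12, primary B cells and the map named for MEFs. In each map 5 of the 11 lay in the long E domain of the H2 genes, and of the 6 elsewhere 4 were E in CH12 cells and 5 in each of the other maps, in 5 domains. Tap1 and Tap2, the peptide transporter, Psmb8 and Psmb9, subunits of the immunoproteasome, and Tapbp, which holds the transporter to class I molecules, lie within the class II span or near the K genes and were E in each map. Tap1 lay 844 kb from an edge in CH12 cells and 2216 kb in primary B cells. B2m on chromosome 2, which encodes the light chain of class I molecules, was E in each map, 227 kb from an edge in CH12 cells and 707 kb in primary B cells. Canx on chromosome 11, a chaperone, was M in CH12 cells and E in the other maps, and Erap1 on chromosome 13, a peptide trimmer, was M in all 3.

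Of 8 genes listed for class II loading and for the control of MHC transcription, 7 were E and 1 was M in both B cell maps, and 8 were E in the map named for MEFs. They lay in 6 domains per map, outside the H2 region, and are to be read against the same shares of all genes. Ciita on chromosome 16, the master activator of class II transcription, was E in each map at 220, 340 and 40.2 kb from an edge in CH12, primary B cells and the map named for MEFs. Cd74, the invariant chain, Ctss, Ifi30, Rfx5 and Rfxank were E as well. So was Nlrc5, which is counted in this list but is known as the activator of class I rather than class II genes. Rfxap, a subunit of the factor that binds class II promoters, was M in both B cell maps and E in the map named for MEFs. Of 5 genes of class I fold outside the H2 region, in 5 domains per map, 3 were E in CH12 cells, 4 in primary B cells and 2 in the map named for MEFs. The shares of all genes that were E were 44.8%, 51.7% and 51.8%. None of the 5 was L, where 28.4%, 17.4% and 16.3% of all genes were. Cd1d1, which presents lipids, was M in CH12 cells, E in primary B cells and M in the map named for MEFs, the order of states seen at H2-T3. Hfe, an iron regulator, was M in all 3 maps, and its start lay 2.72 kb from an edge in CH12 cells.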

How the data were processed

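Per the methods and the submitters' processing notes, 50-base single-end reads of early and late fractions were trimmed (Trim Galore 0.6.5), aligned to mm9 (BWA 0.7.17) and kept where unique (SAMtools 1.9). The authors merged replicates, removed duplicates, computed log2 E/L in 20 kb windows (deepTools), smoothed it by loess over 300 kb and called 3 states. The deposited maps hold domain start, end and state number, with no other value. E, M and L are numbers 2, 1 and 0 in the B cell maps and 0, 2 and 1 in the map named for MEFs. In each map E and L domains touched in 0 places, and E held the most protein-coding starts per Mb (18.9, 17.6 and 16.1) and L the fewest (3.76, 2.88 and 3.29). The last domain of chromosome 17 ended at the NCBIM37 length, 95272651.

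Genes came from GENCODE M1, and 40 of 41 H2 symbols matched a RefSeq symbol or synonym (GRCm38.p6, names only). Positions are 1-based. Windows of 50 bases were counted on both strands of NCBIM37 with numpy 2.4.6 and numba 0.67.0, and gene placement was tested on simulated domains. Members and lists were chosen with earlier results of these data known. Named genes were those whose state differs between the B cell maps, those within 40 kb of an edge, the first and last of each class, and well-known members. Alternatives placed genes by midpoint or end, took protein-coding genes only, joined domains under 100 kb to a neighbour, left out genes within 100 kb of an edge or bins with under 50% windows found once, or used only bins with a gene body.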

Additional observations from a re-analysis of the deposited data

How the results depend on the processing

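Counts were recomputed under 135 combinations of a result and an alternative, and in 125 of these a count stayed within 1.5 times its value. Placing genes by their midpoint or end, or leaving out bins with few windows found once, moved no count further. These alternatives could change little, so the unchanged counts say little about stability. The genes are 1523 to 19249 bases long and short next to their domains. The bins left out held the starts of 4 genes, H2-Q4, H2-Q8, H2-Q6 and H2-Q7, which were E in each map. Joining domains under 100 kb could change nothing, since 0 such domains overlap the region. Leaving out genes within 100 kb of an edge (9 in CH12, 4 in primary B cells, 8 in the map named for MEFs) had the most effect, since it removes genes. The differing genes then numbered 3 of the 9 between CH12 and primary B cells, 4 of the 7 between CH12 and the map named for MEFs, and 2 of the 6 between primary B cells and that map. In CH12 cells 4 H2 genes were then M, all in the M region. The M region then had 1 E gene in primary B cells, 1 E gene in the map named for MEFs and 0 L genes there, so 0 H2 genes were L in that map. Among protein-coding genes the M region had 1 E gene in the map named for MEFs. In bins that overlap a gene body, 26.7% of the M region was E and 60.0% M in primary B cells, against 9.84% and 78.7% of its whole span.

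No paired analysis was possible because each condition has a single merged map. With 1 map per condition, differences cannot be set against replicate spread. Edges are blurred over the smoothing span of 300 kb, and the RT cutoffs of the states are not known for any of the 3 maps. Depth is unknown, so no precision is given.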
